A study of Mus musculus with 12 samples.

Results

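The SLC25 carriers are the largest family of solute transporters of the inner mitochondrial membrane. Members were taken by name, as every gene whose symbol is Slc25a followed by a number, and 46 of the 23163 genes in the deposited count table met that rule. The uncoupling proteins Ucp1, Ucp2 and Ucp3 and the relatives Mtch1 and Mtch2 belong to the same protein family under other names and were not counted as members. The RNA came from 2 fat depots, brown (BAT) and subcutaneous white (sWAT), of wild-type male C57Bl/6 mice aged 8 to 12 weeks. The labels give 20 mice, of which 10 were kept at 4 °C (cold) and 10 at 30 °C (thermoneutral) for 72 hours, with no other treatment and no altered allele in any group. Each of the 4 groups (BAT cold, BAT thermoneutral, sWAT cold, sWAT thermoneutral) holds 3 libraries of whole tissue. Whether a library came from 1 mouse or from several is not given, so p-values measure only the spread between these libraries.

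Proteins of this family share a fold of repeated membrane-spanning modules and usually exchange a metabolite of the matrix for another of the cytosol. Through them pass ADP, ATP and phosphate, the intermediates of the citric acid cycle, acylcarnitines on their way to oxidation, amino acids, nucleotides and the cofactors that matrix enzymes need. Brown fat burns fatty acids and other fuels in mitochondria uncoupled by Ucp1, itself a member of this protein family, and cold is the usual stimulus. White fat of the subcutaneous depot can take on brown-like cells when mice are kept in the cold.

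The libraries held between 27117934 and 56243016 counts. Markers of mature adipocytes were present in all libraries, with a summed level of 6140 to 9990 CPM (counts scaled to library size) in sWAT at thermoneutrality and 13900 to 23200 CPM elsewhere. Much of that gap lay in 1 marker, Fabp4, at 459 to 1440 CPM in that group and 7620 to 13500 CPM elsewhere. Adipoq (851 to 1210 CPM) and Plin1 (797 to 1490 CPM) lay there within the range of the other groups. With cold, 1 of the 6 markers was called higher in sWAT and 0 in BAT. Of all genes, 25.1% were called higher and 24.1% lower with cold in sWAT, and 6.82% and 5.34% in BAT. These shares are the background for each count of markers in this paragraph. Ucp1 stood at 23100, 22500 and 20100 CPM in BAT in cold against 1420, 1820 and 2550 CPM at thermoneutrality, and at 3210, 13200 and 11600 CPM in sWAT in cold against 377, 106 and 41.2 CPM (libraries 1, 2 and 3 of each group, the order used throughout). The sWAT thermoneutral libraries stood apart from the other 9. Mitochondrially encoded genes took 0.181% to 0.307% of their counts and ribosomal protein genes 6.34% to 7.14%, against 17.6% to 53.8% and 0.307% to 1.61% in the other groups. In sWAT this composition and temperature cannot be told apart. The highest mitochondrial share, 53.8%, was that of BAT cold library 3. Summed skeletal muscle markers were 9540, 25200 and 24900 CPM in sWAT in cold against 2380, 6010 and 161 CPM at thermoneutrality, with 9 of 14 markers higher and none of the 14 at 0 in any library. For BAT the same sum ran from 5300 to 8080 CPM in cold, against 4370 to 13800 at thermoneutrality, with 2 of 14 lower. Lymphocyte markers (7 of 12 lower) and macrophage markers (5 of 9 lower, 1 higher) moved the other way in sWAT. Their sums there were 189 to 559 and 289 to 432 CPM in cold against 753 to 1070 and 971 to 1540 CPM. The fibroblast list was mixed in sWAT, with 3 of 7 lower and 0 higher. Its sum was 790 to 1320 CPM in cold against 2480 to 4300 CPM. Most of it was Col3a1 (644, 382 and 464 against 2690, 2160 and 1540 CPM) and Col1a1. Dcn (357, 137 and 178 against 44.1, 91.3 and 176 CPM) and Lum (29.1, 20.7 and 25.1 against 1.65, 9.25 and 17.8 CPM) leaned higher in cold. The part of these cell types in the results on carriers was not tested. In such whole-tissue libraries, fewer cells of a type and less RNA per cell cannot be told apart.

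In BAT, 9 members were higher in cold and 2 were lower, out of 41 with enough counts to be tested. Of the 2, Slc25a18 passed the filter on low counts only through the thermoneutral group, where it is high. Its call is no support, though the counts and shares here include it. Over all genes of that comparison, 12.2% were called at an adjusted p under 0.05 (6.82% higher and 5.34% lower), against 26.8% of the tested members. The median log2 fold change of the tested members was 0.43 and that of all genes −0.04. Among all called genes 56% were higher, a share that fell to 41.5% with upper quartile scaling, which moved the median of all genes to −0.2 and left the members' counts at 9 and 2. In sWAT, 13 members were higher in cold and 8 were lower, again out of 41. Of the 8, Slc25a13 and Slc25a43 passed the filter on low counts only with the thermoneutral group, where they are high. Their calls are no support, though the counts and shares here include them. In sWAT the background was 49.2% of all genes (25.1% higher and 24.1% lower) against 51.2% of members. The members' share was thus near that of any gene, and their median was 0.5 against 0. These shares of all genes in BAT and sWAT are the background for each role group and gene list counted below. Higher in both tissues were Slc25a17, Slc25a34, Slc25a39, Slc25a44, Slc25a48 and Slc25a51, and Slc25a25 was lower in both.

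The calls in BAT were sensitive to single libraries. Leaving out 1 library at a time gave 3 to 13 members higher and 1 to 2 lower in BAT, while the share of all genes called ran from 3.01% to 16.5%. Of the 11 calls in BAT, those of Slc25a17 and Slc25a34 held under every alternative tried, and 9 held under every alternative in which they were tested other than leaving out a single library. In sWAT 11 of 21 calls held under every alternative, those of Slc25a17, Slc25a20, Slc25a29, Slc25a30, Slc25a34, Slc25a35, Slc25a42, Slc25a43, Slc25a44, Slc25a45 and Slc25a51. Of these, Slc25a43 passed the filter on low counts only through the thermoneutral group, where it is high, so its call is no support.

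**Figure D1:**
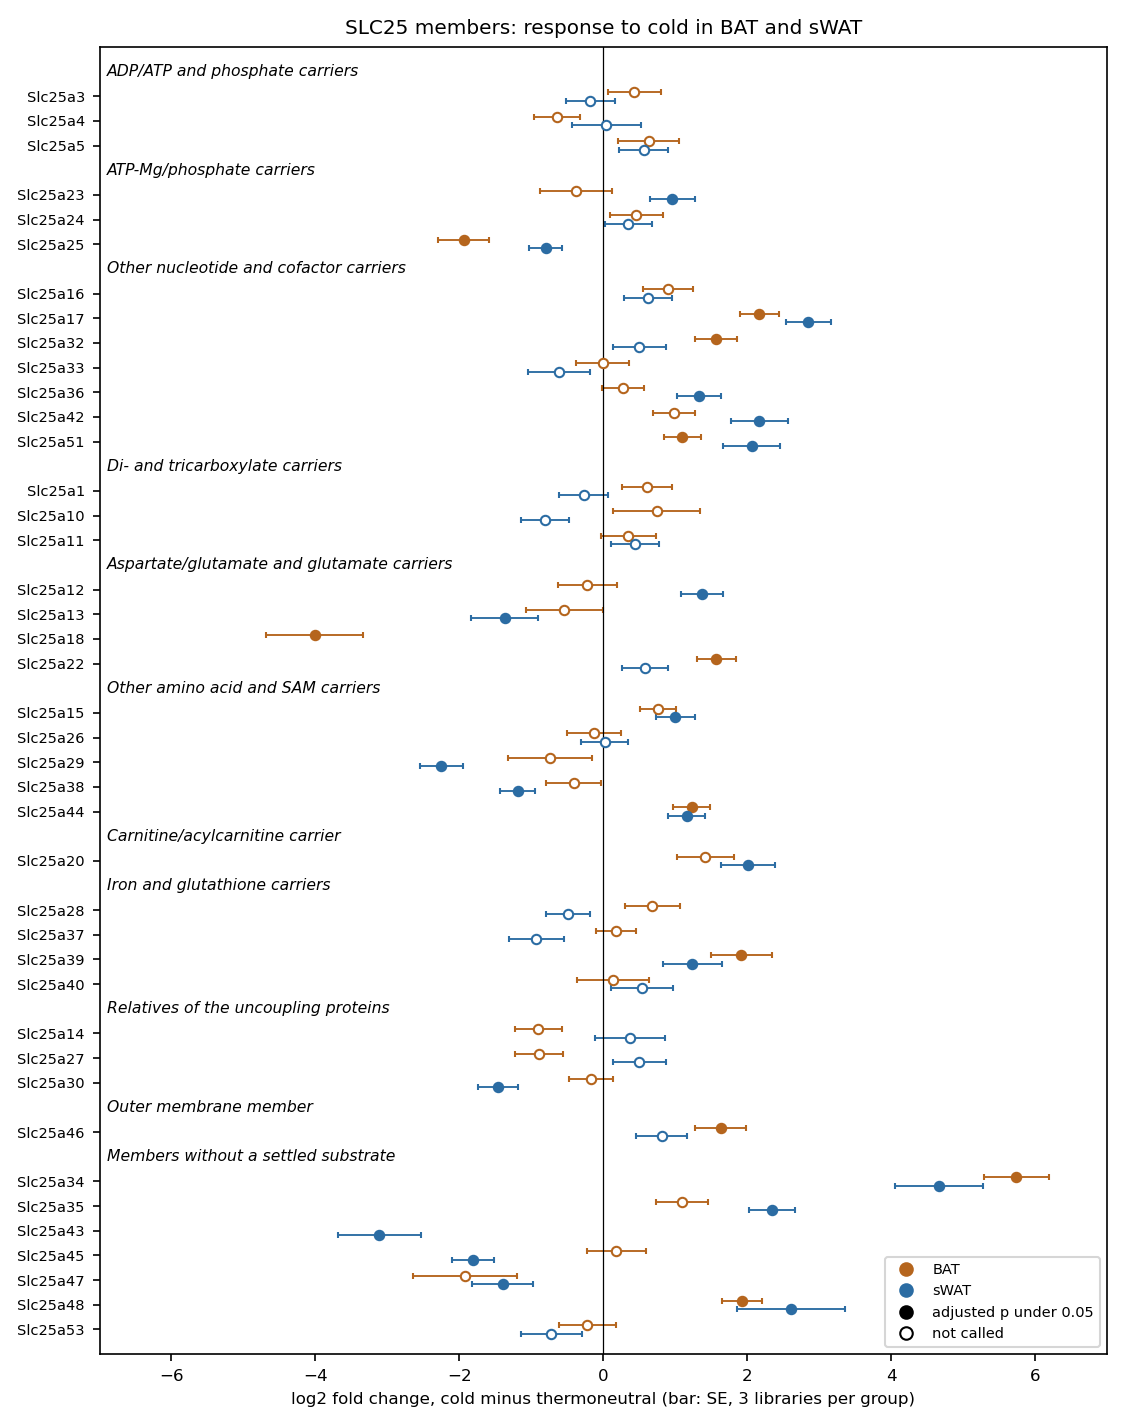
Log2 fold change (cold minus thermoneutral) with its standard error for the tested SLC25 members (1 left out), arranged by role, in BAT (orange) and sWAT (blue). Filled points passed an adjusted p of 0.05; Slc25a34 lies farthest to the right in both tissues, at 5.74 in BAT and 4.66 in sWAT.

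Slc25a34 (mm10, chr4:141618824-141623821, minus strand), a carrier without a settled substrate, had the largest fold change of any tested member in both tissues. In BAT its level was 170, 167 and 110 CPM in cold against 1.88, 2.26 and 4.48 CPM at thermoneutrality. In sWAT it was 31, 119 and 80.9 CPM in cold against 5.09, 2.28 and 1.63 CPM. Every cold library was above every thermoneutral library of its tissue, and sWAT cold library 1, the lowest of the 3 in cold, was also the lowest for Ucp1. The log2 fold change was 5.74 ± 0.45 (SE) in BAT, 53.3-fold (adjusted p = 0.000865), and 4.66 ± 0.61 in sWAT, 25.3-fold (adjusted p = 0.000698). The response in sWAT minus that in BAT was −1.01 ± 0.71 (adjusted p = 0.315), a difference that did not pass the test.

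Slc25a17 (chr15:81318911-81360812, minus strand) carries coenzyme A, FAD and NAD across the membrane of peroxisomes and is the member of this list that is not mitochondrial by function. Its level in BAT was 138, 126 and 164 CPM in cold against 35.1, 37.9 and 25.7 CPM at thermoneutrality. In sWAT it was 67.9, 104 and 114 CPM in cold against 14.1, 9.34 and 15.7 CPM. The groups did not overlap in either tissue, and the libraries within each group lay close together. The log2 fold change was 2.17 ± 0.27 in BAT, 4.51-fold (adjusted p = 0.0036), and 2.85 ± 0.31 in sWAT, 7.22-fold (adjusted p = 0.000398).

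For 35 of the 46 members RefSeq (GRCm38.p6) gives a promoter window, and the bases upstream of the start are shown for 4 of them. Slc25a34, Slc25a17 and Slc25a39 are shown because they rose in both tissues. Slc25a20 is shown because it carries acylcarnitines, the fuel of brown fat mitochondria. Each is 250 bases long, written 5′ to 3′ on the strand of the gene and ending at the base before the RefSeq start. The windows are chr4:141623835-141624084 (minus) for Slc25a34, chr11:102407518-102407767 (minus) for Slc25a39, chr15:81360766-81361015 (minus) for Slc25a17 and chr9:108661886-108662135 (plus) for Slc25a20. RefSeq and GENCODE starts differ. The Slc25a39 window, with its match, lies wholly within the GENCODE span of that gene (chr11:102402985-102407946). Those of Slc25a17 and Slc25a20 overlap the spans of their genes in part. Capitals mark a match to AAGGTCA in Slc25a34 and to AGGTCA in Slc25a39, both on the opposite strand, and to CCGGAAGT in Slc25a20.
Slc25a34: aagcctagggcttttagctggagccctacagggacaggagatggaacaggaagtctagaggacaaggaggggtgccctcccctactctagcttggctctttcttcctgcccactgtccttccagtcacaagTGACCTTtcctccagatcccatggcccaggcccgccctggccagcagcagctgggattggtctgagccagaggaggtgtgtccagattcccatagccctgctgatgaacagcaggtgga
Slc25a39: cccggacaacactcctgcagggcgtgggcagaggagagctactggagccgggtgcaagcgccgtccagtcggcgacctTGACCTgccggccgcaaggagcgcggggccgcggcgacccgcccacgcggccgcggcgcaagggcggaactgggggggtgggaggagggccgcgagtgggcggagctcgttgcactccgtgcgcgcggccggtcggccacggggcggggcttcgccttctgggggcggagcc
Slc25a17: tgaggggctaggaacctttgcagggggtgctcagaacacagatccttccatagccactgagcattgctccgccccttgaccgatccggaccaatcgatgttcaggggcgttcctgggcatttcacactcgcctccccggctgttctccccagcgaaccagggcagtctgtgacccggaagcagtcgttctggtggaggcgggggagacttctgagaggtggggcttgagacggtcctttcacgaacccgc
Slc25a20: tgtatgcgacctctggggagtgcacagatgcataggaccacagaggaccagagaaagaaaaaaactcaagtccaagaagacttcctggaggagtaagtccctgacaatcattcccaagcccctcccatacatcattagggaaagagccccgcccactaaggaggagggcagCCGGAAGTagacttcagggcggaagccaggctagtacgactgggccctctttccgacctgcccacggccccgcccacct

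These windows were searched on both strands for 8 motifs, and the same search was run on the windows of 27025 genes. The nuclear receptor core AGGTCA was in 4 of 35 members (Slc25a34, Slc25a39, Slc25a45 and Slc25a47) and in 13.8% of all genes. Its longer form AAGGTCA, which contains the core, was in Slc25a34 alone, 119 to 113 bases upstream, and in 4.05% of all genes. The estrogen-related receptor element TNAAGGTCA, which contains both, and the direct repeat bound by PPAR/RXR, made of 2 copies of the core around 1 spacer base, were in none of the members and in 1.14% and 0.037% of all genes. The cyclic AMP response element TGACGTCA was in Slc25a36 alone (1.62% of all genes), and its shorter core TGACG, which the element contains, was in 8 members (17.9%). The NRF1 site was in Slc25a3 and Slc25a31 (3.86%), and the ETS core CCGGAAGT was in Slc25a20, 79 to 72 bases upstream (2.93%). No motif was found in the window of Slc25a17. GC content of the 4 windows shown was 58.4% for Slc25a34, 77.2% for Slc25a39, 61.2% for Slc25a17 and 56.8% for Slc25a20. The searches for AGGTCA and AAGGTCA were added after the sequences had been seen, and a match here is a description of the letters only.

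Members without a settled substrate, a group of 7 that includes Slc25a34, moved in both directions. Of these, 2 of the 6 tested were higher in BAT, and 3 of 7 were higher and 3 lower in sWAT. Slc25a34 is among the higher ones in both tissues, and the 3 lower ones include Slc25a43, whose call is no support. Median log2 fold changes were 0.64 and −0.72. Of all genes, 6.82% were higher in BAT, and 25.1% were higher and 24.1% lower in sWAT. Slc25a48 (chr13:56438355-56474239, plus strand) stood at 73.2, 67.6 and 48 CPM in BAT in cold against 16.6, 20.2 and 14.7 CPM. The sWAT levels were 6.14, 37.3 and 24.6 CPM against 4.51, 5.63 and 0.91 CPM, where cold library 1 exceeded the highest thermoneutral library by little. The log2 fold change was 1.93 ± 0.28 in BAT (3.8-fold, adjusted p = 0.00566) and 2.61 ± 0.75 in sWAT (6.1-fold, adjusted p = 0.0189). The call in BAT was lost in the fit over all 12 libraries (adjusted p = 0.0563). That in sWAT was lost without library 2 or 3 in cold or library 1 at thermoneutrality (adjusted p = 0.0514 to 0.0679) and with no filter on low counts (0.0599).

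Slc25a35 (chr11:68968131-68974365, plus strand) stood at 175, 134 and 135 CPM in sWAT in cold against 40.7, 25.1 and 21.2 CPM, a log2 fold change of 2.35 ± 0.32 (5.11-fold, adjusted p = 0.000833). In BAT its level was 227, 302 and 402 CPM in cold against 95.5, 155 and 202 CPM, groups that did not overlap but did not pass the test (1.09 ± 0.36, adjusted p = 0.0859; 0.0494 without thermoneutral library 3 and 0.0318 with DESeq2). Its exons overlap Rangrf on the opposite strand, and the strand setting of the counting is not given, so reads of the 2 genes cannot be told apart.

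Slc25a45 (chr19:5877808-5885878, plus strand) fell in sWAT, from 38.3, 36.4 and 41.2 CPM at thermoneutrality to 15.2, 8.82 and 8.8 CPM in cold, with no overlap (log2 fold change −1.81 ± 0.29, 3.51-fold lower, adjusted p = 0.00162). In BAT it stood at 6.94, 8.34 and 8.61 CPM in cold against 7.18, 3.5 and 11.2 CPM at thermoneutrality, and these overlapped (0.18 ± 0.41, adjusted p = 0.802). Slc25a43 (chrX:36743659-36777202, plus strand) rested on few reads. It had 19, 36 and 24 counts in the sWAT thermoneutral libraries and 5, 2 and 1 in the cold ones, a ratio of 8.61 after scaling to library size, with an exact 95% counting interval of 4.16 to 20.6 (adjusted p = 0.00279). In BAT it had 1, 3 and 1 counts in cold and 1, 1 and 0 at thermoneutrality and was not tested.

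Slc25a47 was lower in sWAT in cold, at 0.779 to 2.5 CPM against 4.21 to 4.73 CPM (log2 fold change −1.4 ± 0.42, adjusted p = 0.0233). This call was lost without cold library 3 or any of the thermoneutral libraries (adjusted p = 0.0567 to 0.0646), in the fit over all 12 libraries (0.0867), and with a correction for GC content (−0.6, adjusted p = 0.22). In BAT Slc25a47 was 0.235 to 2.46 CPM in cold against 3.42 to 9.97 CPM and did not pass (−1.92 ± 0.72, adjusted p = 0.119), but did with DESeq2 (0.0334) and a GC correction (0.0314). Slc25a53 passed in neither tissue (−0.22 ± 0.4 in BAT and −0.72 ± 0.42 in sWAT), though in sWAT it did without cold library 1 (−1.07, adjusted p = 0.0483) and with a GC correction (−1.74, adjusted p = 0.00355).

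**Figure D2:**
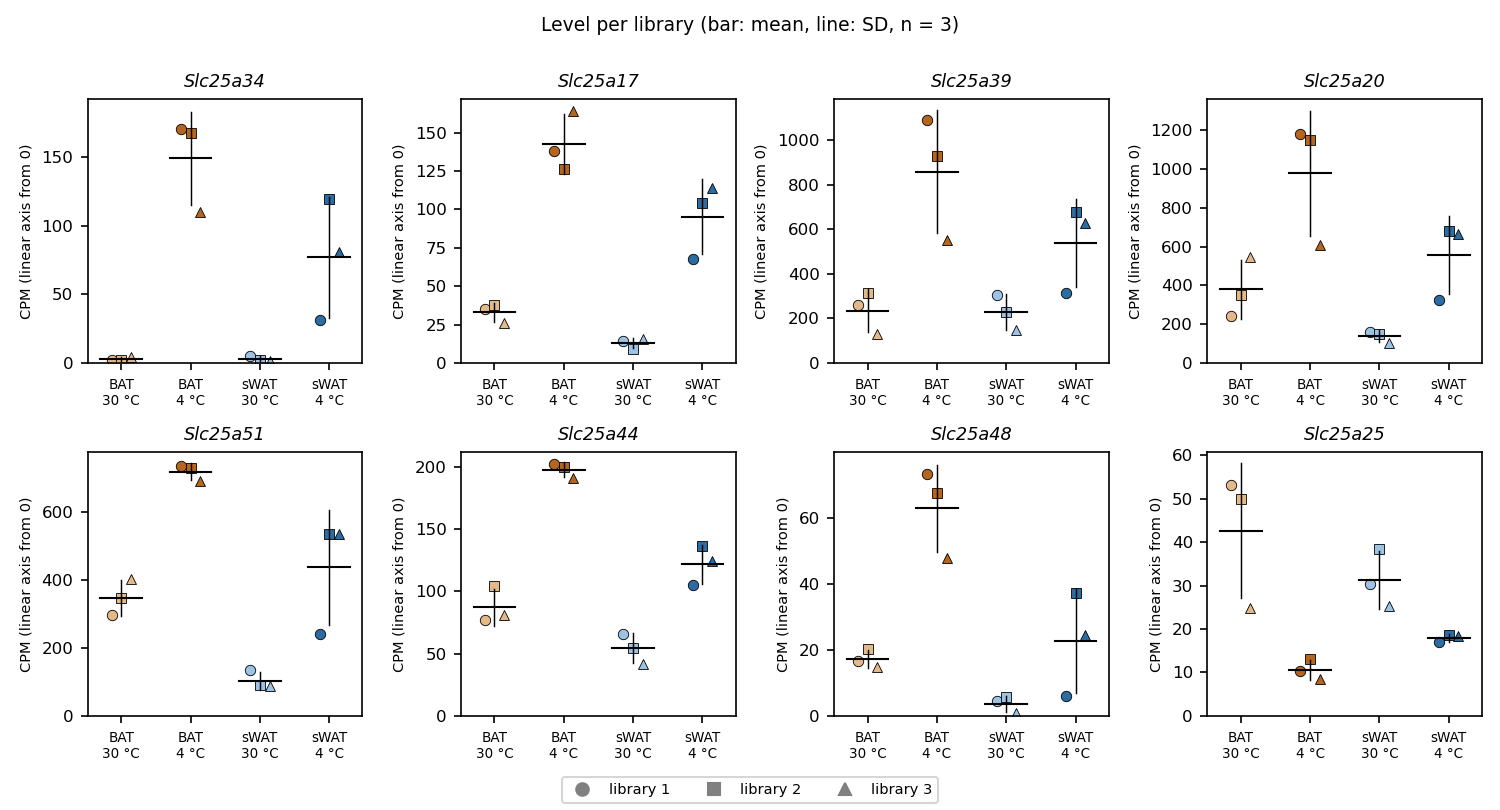
CPM in each library (points, shaped by library number) with the group mean and SD for Slc25a34, Slc25a17, Slc25a39, Slc25a20, Slc25a51, Slc25a44, Slc25a48 and Slc25a25 in the 4 groups. Slc25a25 is the one of these 8 that was lower in cold; its cold libraries in BAT sit between 8.44 and 13.1 CPM and its thermoneutral ones between 24.8 and 53.2 CPM.

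Of 8 tested carriers of nucleotides and cofactors other than ATP, 3 were higher in BAT, where 6.82% of all genes were (median log2 fold change 0.94 against −0.04 for all genes). In sWAT 4 were higher, where 25.1% of all genes were (1.2 against 0). None was called lower in either tissue, against 5.34% of all genes in BAT and 24.1% in sWAT, and the same held for 5 other role groups. For the count of 0 lower, edgeR gave 0 members at an unadjusted p under 0.05 in both tissues, and DESeq2 and limma-voom called 0. Slc25a51 (chr4:45395923-45408766, minus strand), which brings NAD+ into mitochondria, stood at 735, 727 and 689 CPM in BAT in cold against 296, 345 and 401 CPM at thermoneutrality. In sWAT the levels were 240, 533 and 535 CPM in cold against 134, 90.1 and 87 CPM. The groups did not overlap in either tissue, and in sWAT cold library 1 was the lowest of the 3. Fold changes (log2) were 1.1 ± 0.26 in BAT (2.14-fold, adjusted p = 0.0307) and 2.06 ± 0.39 in sWAT (4.17-fold, adjusted p = 0.00313). The call in BAT was lost without library 1 or 2 of either group (adjusted p = 0.102 to 0.136) and in the fit over all 12 libraries (0.0517).

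Slc25a42 (chr8:70184340-70212305, minus strand), which brings coenzyme A into the matrix, stood at 108, 265 and 214 CPM in sWAT in cold against 58.5, 41.8 and 28.8 CPM. All cold libraries were above all thermoneutral ones, with a log2 fold change of 2.17 ± 0.4 (4.51-fold, adjusted p = 0.0028). In BAT it stood at 425, 466 and 306 CPM against 174, 248 and 209 CPM, which did not overlap and did not pass (0.98 ± 0.29, adjusted p = 0.0641). Without BAT cold library 3 its adjusted p was 0.0311, and DESeq2 gave 0.0136.

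Slc25a32 (chr15:39091231-39112716, minus strand), the carrier of folate and FAD, rose in BAT from 11.2, 12.9 and 15.1 CPM to 34.9, 29.1 and 48.2 CPM, without overlap. Its log2 fold change was 1.57 ± 0.29 (2.97-fold, adjusted p = 0.0126), and the call was lost without thermoneutral library 1 or 2 (adjusted p = 0.0614 and 0.0634). In sWAT Slc25a32 was 14.4, 27.9 and 20.5 CPM in cold against 8.37, 21.6 and 14.2 CPM, and these overlapped (0.5 ± 0.37, adjusted p = 0.291). Slc25a36, a carrier of pyrimidine nucleotides, was higher in sWAT (46 to 56.7 CPM in cold against 11.7 to 26.5 CPM, 1.33 ± 0.31, adjusted p = 0.00821), a call lost with a correction for GC content (0.11, adjusted p = 0.737). Slc25a33, its close relative, and Slc25a16, a carrier tied to coenzyme A, passed in neither tissue. Slc25a16 passed in BAT with a GC correction (1.09, adjusted p = 0.0479).

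Slc25a20 (chr9:108662088-108684641, plus strand) exchanges acylcarnitine for carnitine across the inner membrane and so brings fatty acids to oxidation. It stood at 1180, 1150 and 607 CPM in BAT in cold against 244, 350 and 545 CPM at thermoneutrality. In sWAT it stood at 323, 682 and 664 CPM in cold against 158, 152 and 104 CPM. Neither pair of groups overlapped, but in BAT library 3 of each group lay near the other group. In sWAT it rose by a log2 fold change of 2.01 ± 0.38 (4.02-fold, adjusted p = 0.00305). In BAT the value was 1.42 ± 0.4 (2.67-fold, adjusted p = 0.0544) and missed the threshold. It passed in BAT without cold library 3 (adjusted p = 0.0269), without thermoneutral library 3 (0.0313), with DESeq2 (0.00695), with no filter on low counts (0.0348), with a correction for GC content (0.0261) and in the fit over all 12 libraries (0.0394). Without both libraries numbered 3 the log2 fold change was 2.03.

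Enzymes that act with Slc25a20 were counted from a list of 5. In BAT 4 of 5 were higher, namely Cpt1a, Cpt1b, Cpt2 and Crat, with a median log2 fold change of 1.2, against 6.82% of all genes. Cpt2, which reforms acyl-CoA in the matrix, rose by 1.88 ± 0.31 (adjusted p = 0.00878) and Crat, which makes short acylcarnitines, by 1.61 ± 0.29 (adjusted p = 0.0112). In sWAT 3 were higher and 1 was lower, where 25.1% of all genes were higher and 24.1% lower. Cpt1b, the form of the entry enzyme known from muscle and brown fat, rose by 3.36 ± 0.67 (adjusted p = 0.00401), and skeletal muscle markers were also higher in those libraries, a part that was not tested. Cpt1c fell by 1.49 on the log2 scale (adjusted p = 0.00301), and Cpt1a was 0.01 ± 0.26 (adjusted p = 0.978).

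Slc25a39 (chr11:102402985-102407946, minus strand) brings glutathione into mitochondria. It stood at 1090, 928 and 552 CPM in BAT in cold against 258, 316 and 128 CPM at thermoneutrality. In sWAT the values were 314, 676 and 629 CPM in cold against 307, 227 and 146 CPM. The groups did not overlap in BAT; in sWAT cold library 1 lay just above thermoneutral library 1. Its log2 fold change was 1.92 ± 0.42 in BAT (3.79-fold, adjusted p = 0.0219) and 1.24 ± 0.41 in sWAT (2.36-fold, adjusted p = 0.0327). Both calls were lost when single libraries were left out: in BAT without library 1 or 2 of either group (adjusted p = 0.0556 to 0.0807), and in sWAT without library 2 or 3 of either group (0.0896 to 0.101). The paralog Slc25a40 and the iron carriers Slc25a28 and Slc25a37 passed in neither tissue, so 1 of 4 in this group was higher in each (medians 0.43 and 0.02). In sWAT Slc25a37 was lower without cold library 1 (−1.41, adjusted p = 0.00327), without thermoneutral library 1 (0.0467) and with DESeq2 (0.045), a GC correction (0.0278) or the fit over all 12 libraries (0.0359), against −0.93 ± 0.38 (0.0704).

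Among the other amino acid carriers, 1 of 5 tested was higher in BAT, and 2 were higher and 2 lower in sWAT (medians −0.13 and 0.02). The shares of all genes were 6.82% higher in BAT, and 25.1% higher and 24.1% lower in sWAT. Slc25a44 (chr3:88410498-88425139, minus strand), known as the carrier of branched-chain amino acids in brown fat, stood at 202, 200 and 191 CPM in BAT in cold against 76.6, 104 and 81 CPM. In sWAT the levels were 105, 136 and 124 CPM in cold against 66.1, 54.8 and 41.8 CPM. No library crossed between temperatures in either tissue. Fold changes (log2) were 1.23 ± 0.26 in BAT (2.35-fold, adjusted p = 0.0188) and 1.16 ± 0.26 in sWAT (2.23-fold, adjusted p = 0.0065), and the responses differed by −0.02 ± 0.34 (adjusted p = 0.984). The call in BAT was lost without library 1 or 2 of either group (adjusted p = 0.0537 to 0.088).

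Slc25a29 (chr12:108825873-108835883, minus strand), a carrier of basic amino acids, fell in sWAT from 14, 14.5 and 14 CPM at thermoneutrality to 1.97, 3.76 and 3.32 CPM in cold. The thermoneutral libraries were nearly equal and far above the cold ones (log2 fold change −2.25 ± 0.3, 4.74-fold lower, adjusted p = 0.000772). In BAT it stood at 2.87, 1.72 and 0.706 CPM in cold against 3.66, 4.18 and 1.29 CPM at thermoneutrality, which overlapped (−0.74 ± 0.58, adjusted p = 0.429). The glycine carrier Slc25a38 was also lower in sWAT, at 8.33 to 12.2 CPM against 23.3 to 25.6 CPM (−1.19 ± 0.24, adjusted p = 0.00413), a call lost with a correction for GC content (−0.46, adjusted p = 0.095). The ornithine carrier Slc25a15 was higher there, at 12.9 to 20.5 CPM against 7 to 9.29 CPM (1 ± 0.27, adjusted p = 0.0145), and its call was lost without cold library 3 (0.075). The S-adenosylmethionine carrier Slc25a26 passed in neither tissue.

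The carriers of glutamate and aspartate split. Slc25a22 (chr7:141429744-141437892, minus strand), a glutamate carrier, stood at 247, 227 and 184 CPM in BAT in cold against 75.9, 91.8 and 63.3 CPM, with no overlap (log2 fold change 1.57 ± 0.27, 2.96-fold, adjusted p = 0.0108). That call was lost without library 1 or 2 in cold or library 1 at thermoneutrality (adjusted p = 0.0513 to 0.0555). The sWAT levels were 177, 194 and 153 CPM against 158, 115 and 76 CPM, which overlapped (0.58 ± 0.32, adjusted p = 0.157; 1.51, adjusted p = 0.00422, with a correction for GC content). The second glutamate carrier, Slc25a18 (chr6:120773578-120794336, plus strand), was lower in BAT in cold but close to the limit of detection, with 0, 1 and 1 counts against 13, 18 and 16. It passed the filter on low counts only through the thermoneutral group, where it is high, so its call is no support. Scaled to library size, the thermoneutral level was 19.0 times the cold one, with an exact 95% counting interval of 4.97 to 161 (adjusted p = 0.00882; 0.0502 without cold library 2). Its exons overlap Atp6v1e1 on the opposite strand.

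Slc25a12 (chr2:71271063-71367749, minus strand) and Slc25a13 (chr6:6041218-6217173, minus strand) exchange aspartate for glutamate in the malate-aspartate shuttle, which moves reducing equivalents into mitochondria. In sWAT Slc25a12 stood at 29.9, 59 and 58.7 CPM in cold against 20.9, 17.8 and 18 CPM, with cold library 1 nearest to the thermoneutral ones (log2 fold change 1.37 ± 0.29, 2.59-fold, adjusted p = 0.00543). Skeletal muscle, a tissue rich in Slc25a12, had its lowest marker sum among the cold libraries in the same library 1 (9540 CPM against 25200 and 24900). Brown adipocyte markers were also lowest there (4510 CPM against 17000 and 14800). At thermoneutrality the muscle sums were 2380, 6010 and 161 CPM, beside the 20.9, 17.8 and 18 CPM of Slc25a12. The part of muscle was not tested. In BAT Slc25a12 was 16.3, 25.1 and 24.2 CPM in cold against 12.1, 31.3 and 35.8 CPM at thermoneutrality, overlapping (−0.22 ± 0.41, adjusted p = 0.757).

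Slc25a13, best known from liver, was low throughout. It stood at 0.556, 0.209 and 0.564 CPM in sWAT in cold against 1.33, 0.947 and 1.21 CPM, and at 0.179, 0.181 and 0.471 CPM in BAT in cold against 0.58, 0.311 and 0.398 CPM. The sWAT groups did not overlap and the BAT groups did. The log2 fold change in sWAT was −1.37 ± 0.47 (2.59-fold lower, adjusted p = 0.0388). The call was lost without library 2 or 3 in cold or any 1 of the thermoneutral libraries (adjusted p = 0.0634 to 0.117). Slc25a13 had 30, 7 and 18 counts in sWAT in cold against 57, 39 and 64. It passed the filter on low counts only with the thermoneutral group, where it is high, so its call is no support. In BAT the value was −0.54 ± 0.53 (adjusted p = 0.529). Of the 4 shuttle enzymes counted, Got1, the cytosolic aspartate transaminase, rose in BAT (2.95 ± 0.34, adjusted p = 0.00281), and Got1, Mdh1 and Mdh2 rose in sWAT (medians 0.85 and 1.64).

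The carriers of di- and tricarboxylates passed in neither tissue. Of 3 tested in each, edgeR called 0, with 0 at an unadjusted p under 0.05 in BAT and 1 (lower) in sWAT; DESeq2 called 0 in BAT and 1 lower in sWAT, and limma-voom 0. Slc25a1 (chr16:17925223-17928219, minus strand) exports citrate, from which the cytosol makes acetyl-CoA for fatty acid synthesis. It stood at 965, 790 and 415 CPM in BAT in cold against 540, 510 and 429 CPM, overlapping through cold library 3 (0.61 ± 0.35, adjusted p = 0.28; 0.8, adjusted p = 0.01, without both libraries numbered 3). In sWAT it stood at 943, 1150 and 937 CPM in cold against 1310, 1480 and 853 CPM, also overlapping (−0.27 ± 0.34, adjusted p = 0.542). The enzymes that make or use citrate were counted beside it. In BAT 4 of 6 were higher (Acly, Acaca, Acacb and Me1, median 1.41), with ATP-citrate lyase Acly at 2.71 ± 0.32 (adjusted p = 0.00301), and in sWAT all 6 tested were higher (median 1.81). The shares of all genes called higher were 6.82% in BAT and 25.1% in sWAT.

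Slc25a10 (chr11:120491840-120499187, plus strand), which exchanges malate or succinate for phosphate, differed more between depots than between temperatures. It stood at 251, 187 and 164 CPM in sWAT in cold against 451, 366 and 238 CPM at thermoneutrality (−0.81 ± 0.34, adjusted p = 0.0786). In BAT the values were 54.5, 44.8 and 12.7 CPM in cold against 40.2, 20.8 and 9.11 CPM (0.74 ± 0.61, adjusted p = 0.454). Both pairs overlapped, and library 3 was the lowest of its group in all 4 groups. In sWAT the fall passed with DESeq2 (adjusted p = 0.0414), without cold library 1 (0.0276) and without thermoneutral library 3 (0.0464). The oxoglutarate/malate carrier Slc25a11 (chr11:70644196-70647479, minus strand), also of the malate-aspartate shuttle, stood at 152, 151 and 83 CPM in BAT in cold against 115, 139 and 60.1 CPM (0.35 ± 0.38, adjusted p = 0.574). The sWAT levels were 66.8, 142 and 147 CPM against 99.6, 87.5 and 73.2 CPM (0.44 ± 0.33, adjusted p = 0.291). Its groups overlapped in both tissues, and in sWAT it passed without cold library 1 (0.73, adjusted p = 0.0282) and with a GC correction (1.01, adjusted p = 0.0317). Slc25a10 overlaps the antisense gene Gm11788, and Slc25a11 overlaps Rnf167.

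The carriers that serve ATP synthesis did not pass either. Of the 3 tested in each tissue, edgeR called 0 with 0 at an unadjusted p under 0.05, and DESeq2 and limma-voom called 0. Slc25a4 and Slc25a5 exchange matrix ATP for cytosolic ADP; the former is the form of heart and skeletal muscle and the latter is widely expressed. Slc25a4 (chr8:46206797-46211284, minus strand) stood at 365, 318 and 191 CPM in BAT in cold against 446, 567 and 401 CPM, without overlap but short of the threshold (−0.64 ± 0.32, adjusted p = 0.226). In sWAT the levels were 198, 555 and 638 CPM in cold against 398, 657 and 288 CPM (0.04 ± 0.48, adjusted p = 0.945). The sWAT values overlapped. Among the cold libraries number 1 was lowest for Slc25a4, for muscle markers and for brown adipocyte markers, whose part was not tested.

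Slc25a5 (chrX:36795651-36798807, plus strand) stood at 511, 461 and 254 CPM in BAT in cold against 334, 348 and 140 CPM, overlapping (0.63 ± 0.42, adjusted p = 0.347; 0.0388 without both libraries numbered 3). In sWAT it stood at 207, 445 and 428 CPM against 240, 255 and 230 CPM, also overlapping (0.56 ± 0.34, adjusted p = 0.198; 0.84, adjusted p = 0.0206, without cold library 1). A processed pseudogene of Slc25a5 is annotated and could share its reads, and it was not analysed here. The phosphate carrier Slc25a3 (chr10:91116574-91124059, minus strand), which brings in the phosphate for ATP synthesis, stood at 232, 216 and 110 CPM in BAT in cold against 168, 167 and 94.9 CPM (0.43 ± 0.37, adjusted p = 0.462). In sWAT it was 123, 247 and 282 CPM against 249, 262 and 222 CPM (−0.18 ± 0.34, adjusted p = 0.684). Both of its comparisons overlapped.

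The balance of the 2 ADP/ATP carriers was computed per library from CPM per kb of transcript, as the share of Slc25a5 in their sum. In BAT it was 68.5%, 69.3% and 67.3% in cold against 53.8%, 48.8% and 35.1% at thermoneutrality, and all cold libraries were above all thermoneutral ones. In sWAT it was 61.9%, 55.4% and 51% against 48.4%, 37.6% and 55.3%, and these overlapped. An exact two-sided permutation test gave p = 0.1 in BAT, the smallest that 3 against 3 libraries allow, and p = 0.2 in sWAT (0.267 and 0.356 after Benjamini-Hochberg adjustment over 16 such tests). Of 14 nuclear genes for ATP synthase subunits, edgeR called 0 in BAT, where 1 was higher and 2 were lower at an unadjusted p under 0.05, DESeq2 called 1 higher and limma-voom 0. In sWAT 6 were higher and 1 was lower (medians −0.11 and 0.83), where 25.1% of all genes were higher and 24.1% lower.

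**Figure D3:**
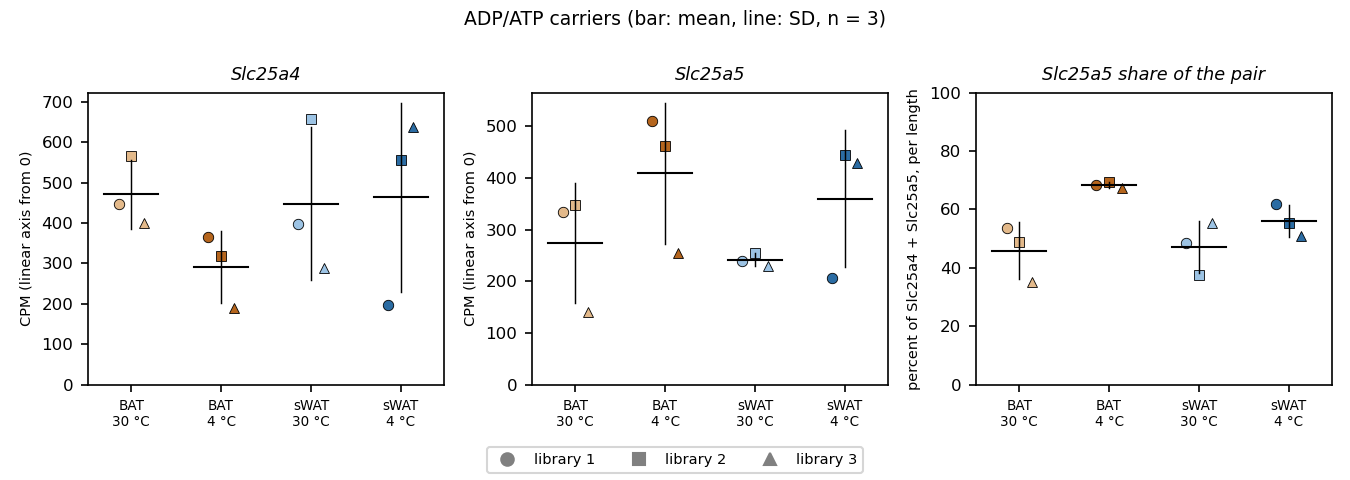
CPM of Slc25a4 and Slc25a5 in each library of the 4 groups, with group means and SD, and the share of Slc25a5 in the sum of both per kb of transcript, in percent. In BAT the cold libraries lie between 67.3% and 69.3% and the thermoneutral ones between 35.1% and 53.8%.

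The ATP-Mg/phosphate carriers, which adjust the adenine nucleotide content of the matrix and some of which respond to calcium, had 3 of 4 members tested. In BAT 1 was lower, and in sWAT 1 was lower and 1 higher (medians −0.38 and 0.35). Slc25a25 (chr2:32414487-32451445, minus strand) stood at 10.3, 13.1 and 8.44 CPM in BAT in cold against 53.2, 50 and 24.8 CPM at thermoneutrality. In sWAT the levels were 17, 18.7 and 18.3 CPM in cold against 30.3, 38.4 and 25.3 CPM. No cold library reached a thermoneutral one in either tissue. Fold changes (log2) were −1.94 ± 0.35 in BAT (3.85-fold lower, adjusted p = 0.0121) and −0.8 ± 0.23 in sWAT (1.74-fold lower, adjusted p = 0.0204). The call in BAT was lost without cold library 1 or thermoneutral library 1 or 2 (adjusted p = 0.0517 to 0.0596), and that in sWAT without cold library 2 or 3 or thermoneutral library 2 (0.0616 to 0.0831). Slc25a25 overlaps Naif1 on the opposite strand.

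Slc25a23 was higher in sWAT, at 80.5 to 157 CPM in cold against 47.2 to 65.8 CPM (0.96 ± 0.31, adjusted p = 0.0316), a call lost without thermoneutral library 2 or 3 (0.0861 and 0.0946) and in the fit over all 12 libraries (0.087). Exons of Slc25a23 overlap the antisense gene Gm17168. Slc25a24 passed in neither tissue.

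The 3 relatives of the uncoupling proteins had no call in BAT, where edgeR gave 2 lower at an unadjusted p under 0.05 and DESeq2 and limma-voom called 0. In sWAT 1 of 3 was lower (medians −0.89 and 0.37). Slc25a30 (chr14:75760117-75787037, minus strand) fell in sWAT from 9.14, 10.9 and 14.5 CPM at thermoneutrality to 4.34, 4.17 and 4.07 CPM in cold, with no overlap (−1.46 ± 0.28, 2.75-fold lower, adjusted p = 0.00327). In BAT it stood at 3.85, 3.13 and 3.4 CPM in cold against 3.88, 3.34 and 4.9 CPM at thermoneutrality (−0.17 ± 0.3, adjusted p = 0.742). Slc25a27 (chr17:43641891-43667214, minus strand) stood at 2.24, 1.69 and 1.58 CPM in BAT in cold against 4.39, 2.54 and 3.68 CPM, without overlap but above the threshold (−0.89 ± 0.33, adjusted p = 0.117). In sWAT it was 2.17, 2.5 and 3.57 CPM against 1.91, 1.43 and 2.45 CPM, which overlapped (0.5 ± 0.37, adjusted p = 0.284). Slc25a46, an outer membrane protein tied to mitochondrial shape, was higher in BAT at 104 to 205 CPM against 39.6 to 62.3 CPM (1.63 ± 0.35, 3.09-fold, adjusted p = 0.0209). That call was lost without cold library 1 or thermoneutral library 1 or 2 (0.0541 to 0.0903). Slc25a46 did not pass in sWAT (0.81 ± 0.36, adjusted p = 0.0901), but did without thermoneutral library 2 (1.29, adjusted p = 0.0166). Its exons overlap B930094E09Rik on the opposite strand.

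Levels were compared between members per kb of the longest annotated transcript. At thermoneutrality the citrate carrier Slc25a1 was first in both depots, at 296 ± 34.7 CPM per kb in BAT and 730 ± 195 in sWAT (SD, n = 3). In BAT Slc25a4 (245 ± 44.3) and Slc25a5 (221 ± 93.9) followed, with ranges that overlapped that of Slc25a1, although Slc25a4 was below Slc25a1 in each of the 3 libraries, and then Slc25a39 (139 ± 57.2) and Slc25a20 (138 ± 55.6). In sWAT the next were Slc25a4 (233 ± 98.5), Slc25a5 (195 ± 10.3), Slc25a10 (174 ± 52.9) and Slc25a39 (135 ± 47.8). Each of these overlapped the next in range, but Slc25a5 (185 to 206) lay above Slc25a39 (86.6 to 182). In BAT in cold the order began with Slc25a39 at 508 ± 163, Slc25a1 at 434 ± 169, Slc25a20 at 356 ± 118 and Slc25a5 at 330 ± 110. These neighbours lay within their spread of each other, although their order was the same in each of the 3 libraries. In sWAT in cold Slc25a1 (607 ± 74.1) was followed by Slc25a39 (320 ± 117), Slc25a5 (290 ± 107), Slc25a4 (241 ± 121) and Slc25a20 (202 ± 73.6). Slc25a34 moved from place 37 of 46 in BAT at thermoneutrality to place 12 in cold. With the median length of coding transcripts in place of the longest, Slc25a39 stayed first in BAT in cold and Slc25a1 first in the other groups, but Slc25a51 moved from place 6 to place 2 in BAT in cold.

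**Figure D4:**
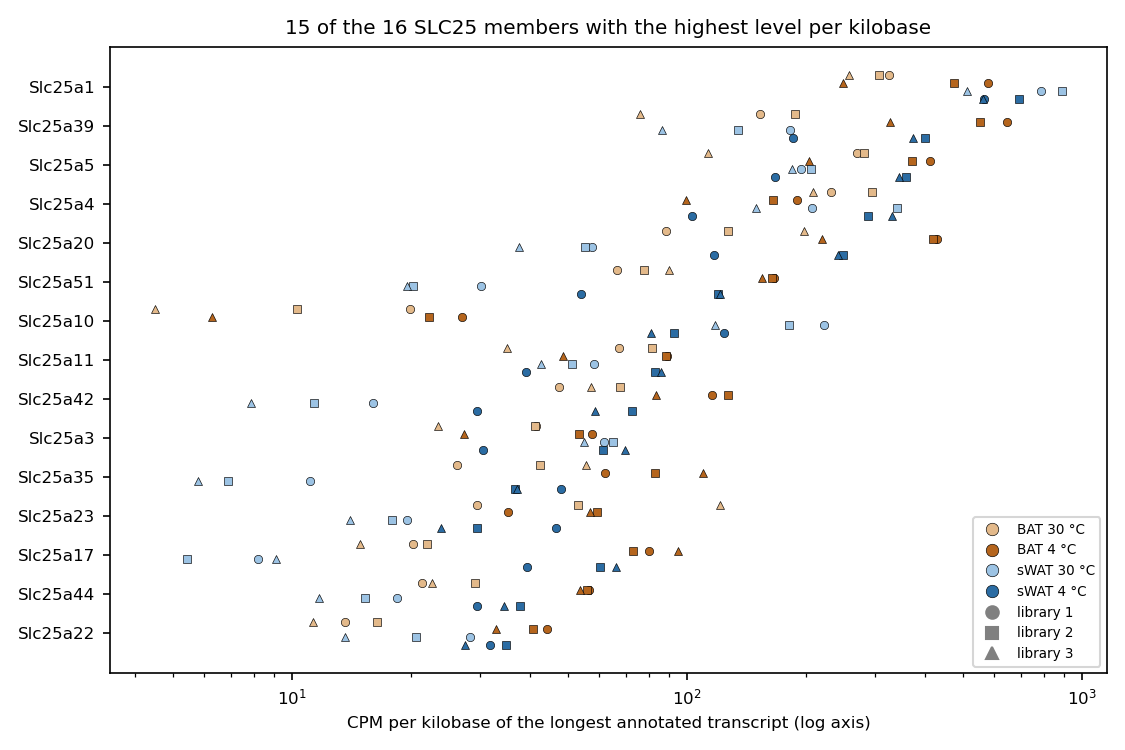
CPM per kb of the longest transcript (log axis) with each library as a point, for 15 of the 16 members with the highest level, in the 4 groups. Slc25a1 leads in 3 groups and Slc25a39, at 508 CPM per kb, leads in BAT in cold.

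Summed over all 46 members, the family held 7995, 7568 and 5418 CPM in BAT in cold against 3689, 4376 and 3827 CPM, a ratio of 1.76 (exact two-sided permutation p = 0.1, adjusted 0.267). In sWAT it held 4031, 6625 and 6121 CPM against 4280, 4584 and 2990 CPM, a ratio of 1.42 (exact p = 0.3, adjusted 0.4). No thermoneutral BAT library reached a cold one, while sWAT cold library 1 fell below 2 of the thermoneutral libraries. As a share of the counts from genes outside the mitochondrial genome, the ratio was 1.3 in BAT and 1.13 in sWAT. As a share of all counts the direction turned in sWAT, with 0.53% ± 0.108 in cold against 0.621% ± 0.0786 at thermoneutrality (SD, n = 3), ranges that overlapped. In BAT that share was 0.286% to 0.604% in cold against 0.348% to 0.443%, which also overlapped.

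Between depots at thermoneutrality, 12 of 43 tested members were higher in BAT and 10 were lower, 51.2% in all, against 58.7% of all genes (29.9% higher and 28.8% lower). The 10 include Slc25a43 and Slc25a21 (−2.12 ± 0.79, adjusted p = 0.0337). Both rest on few reads and passed the filter on low counts only through sWAT, where they are high, so their calls are no support. The sWAT libraries in this comparison are those with the low mitochondrial share, so depot and composition cannot be told apart. Of the 6 members with the smallest adjusted p, Slc25a35, Slc25a10, Slc25a45, Slc25a42 and Slc25a30 kept their calls under every alternative. Slc25a35 was higher in BAT by 2.38 ± 0.36 (5.21-fold, adjusted p = 0.000123) and Slc25a42 by 2.29 ± 0.38 (4.89-fold, adjusted p = 0.000225). Slc25a10 was lower in BAT by −3.91 ± 0.6 (15.1-fold, adjusted p = 0.000138), Slc25a45 by −2.4 ± 0.38 (5.28-fold, adjusted p = 0.000159) and Slc25a30 by −1.51 ± 0.27 (2.85-fold, adjusted p = 0.000426). For Slc25a43 the pooled counts were 79 in sWAT and 2 in BAT, a scaled ratio of 30.5 with a counting interval of 8.16 to 256 (adjusted p = 0.000177). It passed the filter only through sWAT at thermoneutrality, where it is high, so this call is given as a description. None of these 6 pairs of groups overlapped. The same was so for all 12 higher and 10 lower calls of this comparison, so it is no further support. The share of all genes without overlap was not counted.

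In cold, 0 of 43 members were higher in BAT than in sWAT and 2 were lower, 4.65% against 12.3% of all genes (1.19% higher and 11.1% lower). For the count of 0, edgeR gave 6 at an unadjusted p under 0.05, DESeq2 called 4 and limma-voom 0. The lower members were Slc25a10 (−2.43 ± 0.56, 5.38-fold, adjusted p = 0.0116) and Slc25a53 (−1.44 ± 0.42, 2.72-fold, adjusted p = 0.0399). Slc25a53 (chrX:136981116-137038302, minus strand) stood at 1.08, 0.994 and 0.673 CPM in BAT against 3.49, 2 and 1.94 CPM in sWAT in cold, and at 1.52, 1.05 and 0.773 against 2.61, 3.69 and 6.05 CPM at thermoneutrality. The call of Slc25a10 was lost without sWAT cold library 1 (adjusted p = 0.0563), and that of Slc25a53 in all but 9 of 24 alternatives, among them leaving out any BAT cold library, BAT thermoneutral 1 or 2, sWAT cold 1 or 2, or sWAT thermoneutral 2 (adjusted p = 0.0565 to 0.239).

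The response to cold in sWAT was set against that in BAT in 1 fit over the 12 libraries. Of 43 members, 2 had a more positive response in sWAT and 3 a more negative one, 11.6% against 25.1% of all genes (17.3% and 7.85%). The more positive were Slc25a12 (difference 1.65 ± 0.53, adjusted p = 0.0376) and Slc25a27 (1.45 ± 0.49, adjusted p = 0.0434), and the more negative were Slc25a45 (−1.94 ± 0.51, adjusted p = 0.0161) and Slc25a30 (−1.23 ± 0.38, adjusted p = 0.0317). The third in that count, Slc25a43, had 0 to 3 counts in each BAT library and passed the filter only through sWAT at thermoneutrality, so its response in BAT was not measurable at this depth and no difference is read from it. The scaling mattered here. The median of all genes was 0.12, and with median-of-ratios (RLE) scaling it was −0.03; the share of called genes that were more positive went from 68.7% to 58.4%, and the calls of Slc25a12 and Slc25a27 were lost (adjusted p = 0.057 and 0.0666). Leaving out 1 library ended the call of Slc25a12 for 10 of 12 libraries, all but BAT thermoneutral 1 and sWAT cold 1 (adjusted p = 0.0552 to 0.144), and that of Slc25a27 for 11 of 12, all but sWAT thermoneutral 3 (0.0586 to 0.147). Slc25a30 lost its call without BAT cold 1, BAT thermoneutral 2, sWAT cold 3 or sWAT thermoneutral 2 or 3 (0.0531 to 0.0745). For Slc25a34, Slc25a17, Slc25a20, Slc25a39, Slc25a44, Slc25a48 and Slc25a51 the difference of responses did not pass.

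Of the members with few reads, Slc25a2, Slc25a21, Slc25a31 and Slc25a41 were not tested for the response to cold within either tissue. Slc25a31, the ADP/ATP carrier known from testis, had 16, 24 and 8 counts in BAT in cold and 7, 2 and 2 at thermoneutrality, a scaled ratio of 5.4 with an exact 95% counting interval of 2.77 to 11.5, which covers counting error only. In sWAT it had 5, 9 and 6 counts against 2, 0 and 1, a ratio of 7.64 (2.27 to 40.2). The oxoadipate carrier Slc25a21 had 31 counts in the sWAT thermoneutral libraries together and 5 in the BAT ones, a ratio of 4.78 (1.84 to 15.7). This is the pair of groups in which it was called between depots, as a description only. Slc25a2, an ornithine carrier, had 2 to 10 counts per library, and Slc25a41, an ATP-Mg/phosphate carrier, 0 to 2.

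Members lie next to each other at 3 places in the genome. Slc25a29 and Slc25a47 on chromosome 12 start 162 bases apart on opposite strands, and both were lower in sWAT in cold and short of the threshold in BAT. Slc25a41 and Slc25a23 on chromosome 17 are 2056 bases apart on the same strand, and of these Slc25a41 was near 0 while Slc25a23 was at 47.2 CPM or more in all libraries. Slc25a43 and Slc25a5 on chromosome X are 18448 bases apart on the same strand, and they differed in level and in response as given above.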

How the data were processed

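The authors deposited raw counts per gene for 12 libraries of total RNA, whole numbers without normalization, and 0 columns were left without a sample. STAR, DESeq2 and the mm10 build appear in the submitters' processing notes with no versions. The counter, its strand setting, its annotation and any filtering are given by none of the sources used. The word Merged opens the column names of library 1 of BAT in cold and library 2 of sWAT in cold; what was merged is not stated.

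Members were all genes with a symbol of Slc25a and a number. Counts and sums include 1 member that is otherwise not reported here. The members and the gene lists were chosen with earlier results of these data known. The fit ran on all genes in R 4.3.3 with edgeR 4.0.16 and limma 3.58.1, after filterByExpr and TMM scaling, with robust quasi-likelihood dispersions. Adjusted p-values (Benjamini-Hochberg) are those of edgeR's quasi-likelihood test over the genes tested, at a threshold of 0.05 and no minimum fold. Cold was compared with thermoneutral within the 6 libraries of a tissue; the other 3 of the 5 comparisons used all 12. The standard error was taken as the absolute log2 fold change over the root of F. CPM were computed here with TMM factors over 12 libraries, and CPM per kb with the longest GENCODE M21 transcript. Scaled count ratios carry exact 95% intervals for counting error only. Single values per library had exact permutation tests.

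Values for every library are given for the 8 called members with the smallest adjusted p in each tissue, the 6 with the smallest where depots are compared, and 15 further members, with members added where a difference was called. Transcript lengths, GC content and positions were matched by symbol for all 46 members. Promoter windows came from RefSeq: for a member the entry nearest to its GENCODE start, for other genes the first one listed. Alternatives were upper quartile or RLE scaling, totals leaving out the 13 mitochondrially encoded genes, filters (none, or 1 CPM in at least 3 libraries), DESeq2 1.42.0, limma-voom, non-robust dispersions, a GC correction, the library number as a block, both together, leaving out libraries, and 1 fit over all 12. The scripts were tested on simulated data. No column was identical to another (0 pairs), and Spearman correlations within groups were 0.942 to 0.994.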

Additional observations from a re-analysis of the deposited data

Results flagged for a closer look

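A test of the difference itself called the response to cold different between sWAT and BAT for 5 members, and for 4 of them the response was measurable in both tissues. It was more positive in sWAT for Slc25a12, an aspartate/glutamate carrier (difference on the log2 scale 1.65), and for Slc25a27, a relative of the uncoupling proteins (1.45). It was more negative in sWAT for Slc25a30, another relative of the uncoupling proteins (−1.23), and for Slc25a45, a carrier without a settled substrate (−1.94). The fitted value of the fifth, Slc25a43 (−4.56), has no measurable response in BAT behind it: it had 0 to 3 counts in each BAT library, was not tested there, and entered the joint fit only through sWAT at thermoneutrality, so no difference is read from it. None of the 5 calls held under every alternative. Slc25a12 and Slc25a27 lost theirs with RLE scaling (adjusted p = 0.057 and 0.0666) and without mitochondrially encoded genes (0.0536 and 0.0664). Slc25a45 lost its call with a GC correction (0.0997), Slc25a30 with no filter and without any 1 of 5 libraries (0.0531 to 0.0745), and Slc25a43 without BAT cold library 2 (0.0865). In sWAT the thermoneutral libraries had 0.181% to 0.307% of counts from mitochondrially encoded genes, against 19.7% to 33.6% in cold, and the part of this composition was not tested.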

How the results depend on the processing

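In BAT the counts of members higher and lower in cold (9 and 2) became 15 higher with the replicate block and GC correction together, 19 and 5 without both libraries numbered 3, and 1 lower with a filter of 1 CPM in 3 libraries; without single libraries they ran from 3 to 13 and 1 to 2. The share of all genes called in BAT, 12.2%, was 19.2% with DESeq2, 21.1% with a GC correction, 24.2% with block and GC correction and 44.7% without both libraries numbered 3. In sWAT (13 and 8) no alternative moved a count by over 1.5 times except single libraries left out, with 10 to 16 and 5 to 11. For the difference of responses (2 and 3), RLE scaling and totals without mitochondrial genes gave 0 more positive, no filter and limma-voom gave 1, and 7, 6 and 5 were more negative with a GC correction, with block and GC correction and without both BAT libraries numbered 3; single libraries left out gave 0 to 1 and 2 to 8. Between depots at thermoneutrality (12 and 10) single libraries left out gave 9 to 13 and 8 to 11, a GC correction 15 and 14, block and GC correction 14 and 15, and DESeq2 12 and 12. Between depots in cold (0 and 2), 1 member was higher in BAT without mitochondrial genes, 4 with DESeq2, 3 with a GC correction and 4 with block and GC correction. In the same comparison 1 was lower with RLE scaling, without mitochondrial genes, with limma-voom, with a GC correction, with block and GC correction and without both BAT libraries numbered 3, and the range was 0 to 3 and 0 to 2 without single libraries. There the share of called genes higher in BAT, 9.68%, was 26% with DESeq2, 34% with a GC correction and 32.3% with block and GC correction. Slc25a40 changed direction, from 0.13 to −0.8 in BAT without both libraries numbered 3 and from 0.54 to −0.93 in sWAT with a GC correction; between depots at thermoneutrality it went from 0.17 to −1.26 with block and GC correction, and also turned with a GC correction alone (adjusted p = 0.0091). There Slc25a16 went from 0.09 to −0.78 with block and GC correction (adjusted p = 0.0325). The cause of these changes was not tested. A sign change was not counted where neither fit made a call.

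The replicate number as a block gave 11 and 3 members in BAT, 12 and 7 in sWAT, 3 and 3 for the difference of responses, 12 and 10 at thermoneutrality and 0 and 2 in cold. In sWAT Slc25a25 (adjusted p = 0.0562) and Slc25a39 (0.0921) lost their calls under it, and Slc25a42 (0.0442), Slc25a35 (0.0217) and Slc25a47 (0.0278) gained one in BAT. Slc25a25 gained one for the difference of responses, and between depots in cold Slc25a53 lost its call (0.06) and Slc25a12 gained one (0.0387). It changed no other call. Deviations of libraries with the same number correlated by 0.07 to 0.31 in BAT, where 5 of 6 libraries correlated best with their own number, and by −0.31 to 0.19 in sWAT, where 0 of 6 did. Between the depots, numbers 1, 2 and 3 correlated by 0.02, 0.22 and 0.07 at thermoneutrality and by −0.47, 0.53 and −0.3 in cold. The main depot comparisons took BAT and sWAT libraries as independent. Sample titles give the number after "Exp", and what it marks is not stated in the sources used here, so whether it pairs the libraries is not settled. Depth limited Slc25a18, Slc25a43, Slc25a31, Slc25a21, Slc25a2 and Slc25a41, which had under 50 counts in every library.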

Other observations

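Proteins that work beside the carriers were counted from lists of other transporters. Channels and carriers of other families (10 genes) had 1 higher and 1 lower in BAT in cold, Sfxn5 (log2 fold change 1.94 ± 0.45, adjusted p = 0.0283) and Sfxn4 (−1.54 ± 0.3, adjusted p = 0.0157). In sWAT 6 were higher and 1 was lower, and Vdac3, a channel of the outer membrane, rose by 3.6 ± 0.3 (adjusted p = 0.000202) against 0.1 ± 0.45 in BAT (adjusted p = 0.905). Over all genes, 6.82% were higher and 5.34% lower in BAT, and 25.1% and 24.1% in sWAT. The pyruvate carrier subunits Mpc1 and Mpc2 passed in neither tissue. Of 8 genes for calcium and cation transport, Mcu, the pore of the calcium uniporter, and Letm1, a cation exchanger, were higher in both tissues, Letm1 by 2.68 ± 0.29 in BAT (adjusted p = 0.00217) and 2.6 ± 0.5 in sWAT (adjusted p = 0.00347). In sWAT Ghitm was also higher (2.09 ± 0.36, adjusted p = 0.00194) and the sodium/calcium exchanger gene Slc8b1 was lower (−1.9 ± 0.24, adjusted p = 0.000628).

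The TIM22 machinery inserts SLC25 proteins into the inner membrane. Of its 9 genes edgeR called 0 in BAT (1 higher at an unadjusted p under 0.05, with 0 called by DESeq2 and by limma-voom), and in sWAT Timm9 (1.7 ± 0.34, adjusted p = 0.00391) and Timm10 (1.34 ± 0.42, adjusted p = 0.0282) were higher. Of the relatives without the family name, Mtch2 was higher in sWAT (2.31 ± 0.31, adjusted p = 0.000764) and did not pass in BAT (0.76 ± 0.28, adjusted p = 0.112), and Mtch1 passed in neither. Erythrocyte markers had 2 of 8 higher in BAT and 1 of 7 tested higher in sWAT, and endothelial markers had 0 of 7 called in BAT and 3 higher and 1 lower in sWAT.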
